A study of Homo sapiens with 10 samples.

Results

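The comparison described here sets the RNA of extracellular vesicles (EVs) pelleted at the highest speed from PC3 culture against the RNA of whole PC3 cells. PC3 is an established line of human prostate cancer cells that came from a metastasis in bone. The pellet, called EV 100K after its label (the speeds are labelled 2.8K, 10K and 100K, with no unit), has 3 libraries, and whole cells have 1, so 4 of the 10 libraries of the series belong to the comparison. They were chosen by their labels: the 100K spin of sets 1, 2 and 3, and the cell sample. All come from the same untreated line grown in DMEM with 10% fetal bovine serum. The labels set them apart by the fraction taken. They do not say whether the cell sample came from the same cultures as the pellets. All 4 are total RNA libraries made with a low-input stranded kit, which captures RNA with and without a poly(A) tail.

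Cells release membrane-bound vesicles that carry RNA and protein. Large vesicles and cell fragments sediment at low speed, while small vesicles, and also ribosomes and other free particles, need a high speed, so a high-speed pellet is a mixture and not a pure vesicle type. Some mRNAs are known to be carried along microtubules to the protruding edge of migrating cells, among them RAB13, NET1, KIF1C and TRAK2, and G- and A-rich stretches in the 3′ untranslated region (UTR) of several of them are known to take part in this transport.

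Total counts were 8083438, 5424964 and 6631087 in the EV 100K libraries and 28735081 in the cell library. Spearman correlations across genes were 0.958 to 0.960 between EV 100K libraries, and 0.855 to 0.871 between each of them and the cells. Whether the sets are separate cultures is not stated in the labels, and the p-values therefore reflect only how these samples vary, which may be technical variation. The cell library has no replicate and was assumed to vary like the EV 100K libraries. Levels are shares of RNA: a lower level in EV 100K can be less of that RNA or more of all others, and these cannot be told apart. Of the 8 markers fixed for PC3, none was at 0 in both EV 100K and cells, though CDH1 and PSCA had near none, and their summed level was 572 to 672 CPM (counts scaled to a library total of 1e+06) in EV 100K and 1570 in the cells. Of 9 leukocyte markers, 7 were at 0 in all EV 100K libraries, as were 10 of 11 blood and serum genes, including ALB, HBA1 and HBB. The summed leukocyte level was at most 1.15 CPM in EV 100K and 1.55 in the cells. Other marker sums were low but above the cells in EV 100K: 6.58 to 11.5 CPM against 5.57 for fibroblast, 3.19 to 3.89 against 1.14 for neuronal and 10.0 to 24.0 against 9.24 for luminal prostate markers. Of these lists, 4 of 7, 6 of 8 and 4 of 7 markers were at 0 in all EV 100K libraries, and their part in the results was not tested.

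Sequences are shown for 2 sets of RNAs that the results turn on. The first set is 30-base windows of 3′ UTRs, from GENCODE release 29 on GRCh38, with A and G in capitals. Each is the window of that UTR with the most A and G, given at least 8 of each. The first 4 belong to mRNAs that were higher in EV 100K, and those of CYB5R3 and ACTB, which were lower, stand beside them for contrast.
RAB13 (chr1:153981919-153981948, minus strand): AGAAAGGAAAAAAAGGAAGAGAGAGGAAGG
NET1 (chr10:5457954-5457983, plus strand): GAGttAAAAGAAAAAGAGAGGAAAAGAGAG
TRAK2 (chr2:201380395-201380424, minus strand): GAAAGGGGGAAtGGAGGAAtGGAAAtAAAA
KIF1C (chr17:5024308-5024337, plus strand): GGAGGctGAGGAAAGGAAGAGGGcAcGGAG
CYB5R3 (chr22:42619391-42619420, minus strand): AtAGtcGGGAtGtcAGcAGAcAcAcAtGGG
ACTB (chr7:5527584-5527613, minus strand): AGGAtttAAAAActGGAAcGGtGAAGGtGA
The RAB13 window held 30 purines of 30, NET1 28, TRAK2 27, KIF1C 26, ACTB 22 and CYB5R3 19. These genes were chosen by hand and do not stand for all genes. The median best window held 24 purines in genes with a log2 fold change of 4 or more and 23 in those below -2.

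The second set is 3 short RNAs made by RNA polymerase III that were among the RNAs highest in EV 100K relative to the cells: a vault RNA, part of the vault particle, a Y RNA, which binds the Ro protein, and the U6atac RNA of the minor spliceosome. The sequences are those of GENCODE release 29, in lower case.
VTRNA1-1 (chr5:140711275-140711373, plus strand): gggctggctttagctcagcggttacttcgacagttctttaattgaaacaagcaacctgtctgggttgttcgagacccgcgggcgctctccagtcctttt
RNY1 (chr7:148987136-148987248, minus strand): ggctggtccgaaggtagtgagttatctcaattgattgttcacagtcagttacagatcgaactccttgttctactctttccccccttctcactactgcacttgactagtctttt
RNU6ATAC (chr9:134164439-134164564, minus strand): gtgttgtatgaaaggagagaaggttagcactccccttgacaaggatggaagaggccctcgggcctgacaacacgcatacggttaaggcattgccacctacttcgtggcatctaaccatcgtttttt

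Across the transcriptome, EV 100K and whole cells differed widely and in both directions. Of 16933 genes tested, 5295 passed at an adjusted p of 0.05 (edgeR's quasi-likelihood test, Benjamini-Hochberg adjustment), which is 31.3%. In EV 100K, 2669 (15.8%) were higher and 2626 (15.5%) lower, and the median log2 fold change of all genes was -0.08. The changes of at least 4-fold numbered 1013 higher and 541 lower, and those of at least 16-fold 321 and 121, of which 22 of the lower ones lie on the mitochondrial chromosome. A fit on all 10 libraries, in which the more variable libraries of the other pellets share in the estimate of the spread, called 2247 of 22370 genes (10.0%), with 1026 higher (4.59%) and 1221 lower (5.46%). Of the 5295, 2242 (13.2% of the genes tested) were called in both fits in the same direction, and none was called in opposite directions. Both fits draw this fold change from the same 4 libraries, so agreement in direction is no added evidence. Under DESeq2, 60.4% of the calls were higher, against 50.4% here.

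**Figure D1:**
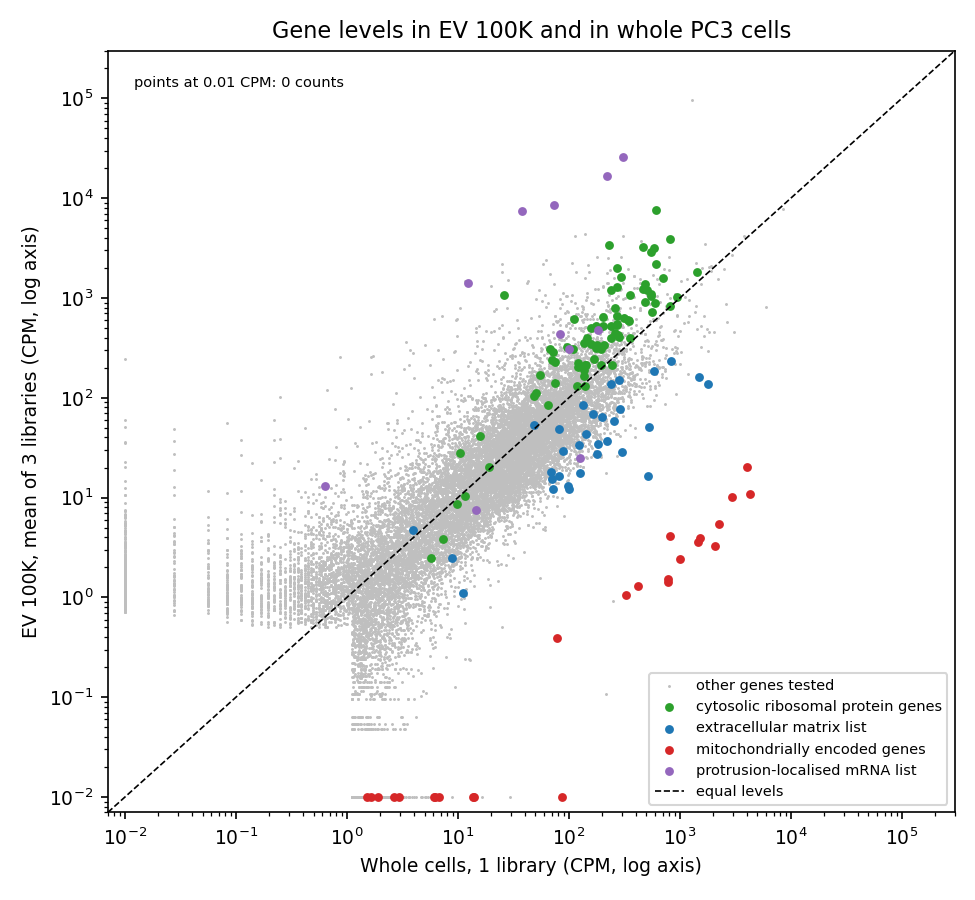
Mean CPM in EV 100K (y, 3 libraries) against CPM in whole cells (x, 1 library) for the 16933 genes tested, both on log axes, with genes at 0 counts drawn at 0.01. Mitochondrially encoded genes (red) lie far below the line of equal levels. Purple marks a list of mRNAs known to localise to protrusions. Of these, KIF1C, NET1, TRAK2, RASSF3 and RAB13 lie far above the line, and CYB5R3 and RHOB lie below it.

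The RNA of the pellet was concentrated in fewer genes than that of the cells. The 10 most abundant genes took 16.9% ± 1.92 of the counts (SD, n = 3) in EV 100K and 5.12% in the cells, and the 100 most abundant 31.9% ± 2.62 and 17.8%. The largest single share, 8.88% ± 1.69, belonged to lnc-ARF6-1, an entry of a long noncoding RNA catalogue, which took 0.161% of the cells' counts (95% Wilson interval 0.159% to 0.162%). After thinning to 5424964 counts, 15441 genes had a count in all 3 EV 100K libraries, and 14871 of these also in the cells. With at least 5 counts required, 501 genes were detected in all 3 EV 100K libraries but not in the cells (116 of them protein-coding, 270 from the catalogue) and 1908 in the cells but in no EV 100K library (355 and 1152).

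Several mRNAs known to localise to protrusions were much higher in EV 100K. The transcripts of KIF1C (a kinesin motor), NET1 (an exchange factor for RhoA), TRAK2 (an adaptor that links mitochondria to motors), RASSF3 (a Ras-association domain protein) and RAB13 (a small GTPase of the membrane traffic) together took 5.54% ± 0.229 of the EV 100K counts (SD, n = 3) and 0.0824% of the cells' (interval 0.0813% to 0.0834%). KIF1C measured 28983, 23227 and 25765 CPM in EV 100K and 310 in the cells. All 3 EV 100K libraries lay far above the cells, a log2 difference of 6.39 ± 0.47 (SE; edgeR adjusted p = 6.6e-13).

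NET1 measured 17352, 15569 and 17074 CPM against 223, a log2 difference of 6.23 ± 0.45 (edgeR adjusted p = 3.2e-13). TRAK2 measured 9127, 7510 and 9247 CPM against 73.6, a difference of 6.87 ± 0.44 (edgeR adjusted p = 1.9e-14). RASSF3 measured 8427, 6311 and 7455 CPM against 37.9, a difference of 7.61 ± 0.45 (edgeR adjusted p = 3.0e-15). None of these overlapped the cell library. TRAK2 and RASSF3 are among the 12 highest fold changes, for which the rule of selection required this, so it is no added evidence. RAB13 was less abundant, at 1659, 1125 and 1434 CPM against 12.4, and rose by a like amount, 6.82 ± 0.39 on the log2 scale (edgeR adjusted p = 1.1e-15).

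Over the whole list of 11 such mRNAs, 9 were higher, 1 was lower and 1 did not pass. These shares were 81.8% higher and 9.09% lower, against 15.8% and 15.5% over all genes tested. In the fit on 10 libraries 8 were higher and 1 lower. The median log2 fold change was 4.33 against -0.08 for all genes. The list was drawn up knowing that KIF1C and NET1 were high in these vesicles, so its count is no independent evidence. The other members that rose were DDR2 (a collagen receptor), PKP4 (a junction protein), DYNLL2 (a dynein light chain) and KANK2 (an adhesion protein). PKP4 stood at 426, 402 and 470 CPM against 83.9, and DDR2 at 14.3, 12.4 and 12.1 CPM against 0.638. CYB5R3, a reductase, measured 17.0, 30.6 and 26.9 CPM against 126 and fell by 2.35 on the log2 scale. RHOB, a small GTPase, measured 7.59, 8.26 and 6.64 CPM against 14.6 and did not pass (edgeR adjusted p = 0.14).

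Stretches of A and G, as printed above, were counted in the 3′ UTRs of all 12051 protein-coding genes tested whose UTR has at least 30 bases. This measure was added after the fold changes were known, and 2 definitions were tried. The first was an unbroken run of at least 18 bases A or G, which 17.3% of genes had, 25.1% of the 171 genes with a log2 fold change of 4 or more, and 11.4% of the 572 below -2. By that measure 7 of the 10 list members with such a UTR had a run, but the longest run of KIF1C was a plain poly(A) stretch. A window of 30 bases with at least 27 purines, and at least 8 each of A and G, was therefore defined afterwards.

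By the second definition 11.02% of all genes, 21.6% of those at 4 or more and 9.09% of those below -2 had a window. The median number of purines in the best window differed little: 24 at 4 or more, 23 below -2 and 23 over all. Of the 10 list members measured 5 had a window, and RASSF3 was not among the 10. RAB13 held 30 purines, which 0.722% of genes reached, while KIF1C held 26, which 21.3% of genes reached. PITPNM3 and SH3PXD2A also reached 30, and CGNL1 29, but PKP4 had 25, NTN5 21 and IGIP 20. The median 3′ UTR length was 838 bases in genes at 4 or more, 734 in those below -2 and 1110 over all, so the lengths differed as well. Genes are not replicates and no test was made. Across 12248 protein-coding genes the fold change had a Spearman correlation of 0.14 with 3′ UTR length, 0.02 with coding length and -0.13 with GC content.

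Genes with the highest fold changes included little-expressed ones and abundant ones. CHD9NB and NTN5 (a netrin family member) had no count in the cells. CHD9NB measured 31.1, 27.8 and 49.7 CPM in EV 100K, at least 437-fold above the floor of 3 counts, and NTN5 24.8, 25.5 and 54.9 CPM, at least 421-fold. TRPV3, an ion channel, measured 11.2, 12.02 and 9.88 CPM against 3 counts in the cells, a ratio of 132 with a counting interval of 44.5 to 645. The remaining leading genes had more cell counts.

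PITPNM3, a phosphatidylinositol transfer protein, measured 128, 75.7 and 100.1 CPM against 0.25, a log2 difference of 8.61 ± 0.48. IGIP, a short secreted protein, measured 284, 191 and 298 CPM against 0.860 (8.21 ± 0.41). SH3PXD2A, the scaffold TKS5 of invasive adhesions, measured 1362, 1277 and 1788 CPM against 11.5, a fitted ratio of 128. CGNL1 (a junction protein) stood at 7.24 ± 0.36 and ZNF471 at 8.28 ± 0.63. The rule that picked these genes required all 3 EV 100K libraries to lie on the same side of the cell library. That they did not overlap the cells is therefore no added evidence.

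Zinc finger genes, most of which encode DNA-binding repressors, were more often higher than lower. Of 429 tested, 99 were higher (23.1%, against 15.8% over all genes tested) and 11 lower (2.56%, against 15.5%). In the fit on 10 libraries these counts were 34 and 3. The median log2 fold change was 0.41, against -0.08 for all genes. ZNF778 measured 2014, 1589 and 1891 CPM against 24.8, and ZNF124 368, 313 and 318 against 14.8. Their differences were 6.20 ± 0.37 and 4.49 ± 0.30 on the log2 scale.

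The Y and vault RNAs tested and the U6atac RNA were higher in the pellet. VTRNA1-1 measured 112, 171 and 88.9 CPM in EV 100K and 1.08 in the cells, a log2 difference of 6.83 ± 0.43 (edgeR adjusted p = 2.4e-14). RNY1 measured 122, 109 and 103 CPM against 2.77 (5.32 ± 0.34, edgeR adjusted p = 2.1e-14). RNU6ATAC measured 48.7, 52.8 and 48.4 CPM against 0.416 (6.88 ± 0.48, edgeR adjusted p = 2.1e-13). The EV 100K libraries did not overlap the cells in any of them. For VTRNA1-1 and RNU6ATAC the rule that picked them required this, so it is no added evidence.

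All 4 Y and vault RNAs tested rose in both fits, VTRNA1-2 by 3.41 and RNY3 by 3.32 on the log2 scale, while 5 more members of that list had no count in any of the 4 libraries. Of 50 small nuclear RNA genes tested, 18 were higher (36%, against 15.8% over all genes tested) and none lower (against 15.5%), with a median of 2.51. In the fit on 10 libraries 7 were higher. Of 1909 such entries only these 50 passed the low-count filter. A single library sufficed for that, and 3 of the 4 are EV 100K. The part of the filter in this one-sided count was not tested. RNVU1-27, a U1 variant with near-identical copies whose counts are uncertain, measured 831, 520 and 501 CPM against 9.82. Small nucleolar and Cajal body RNAs, which guide modification of other RNAs in the nucleus, had 7 of 57 higher (12.3%, against 15.8% over all genes tested) and 9 lower (15.8%, against 15.5%), with a median of -1.98. In the fit on 10 libraries these counts were 1 and 7. SNORD15B measured 2.00, 1.69 and 0.972 CPM against 55.0, and fell by 5.13 on the log2 scale.

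**Figure D2:**
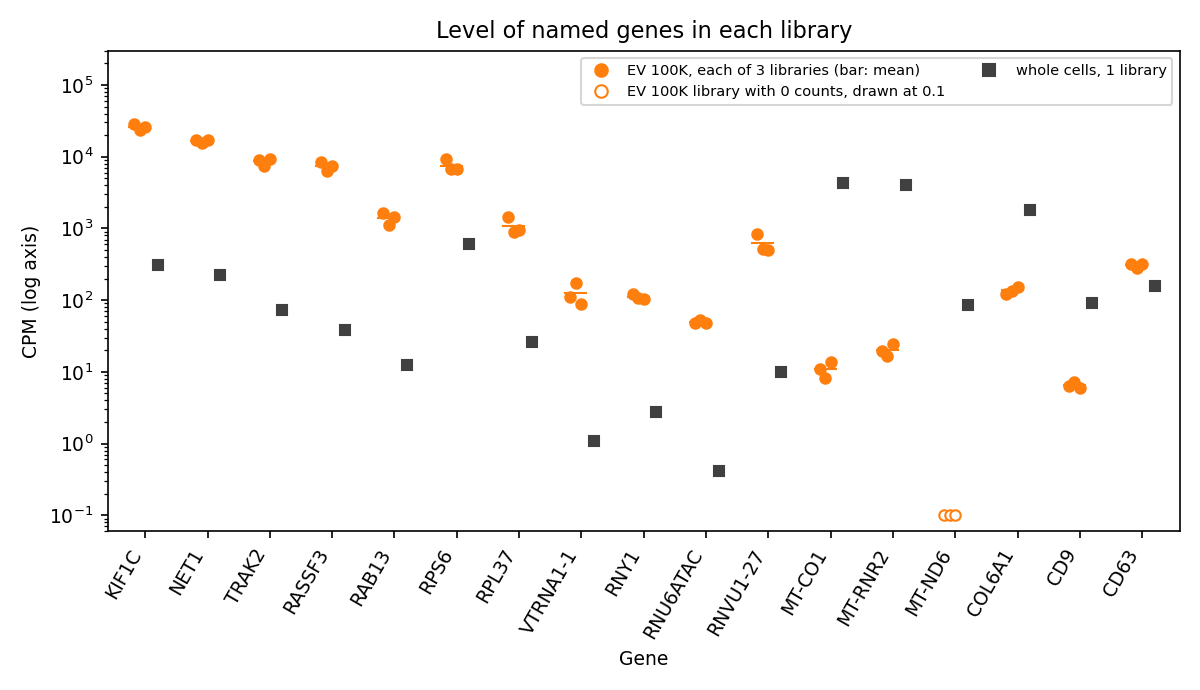
CPM (log axis) of 17 named genes in each EV 100K library (circles, bar at the mean) and in the cell library (squares), with libraries at 0 counts drawn open at 0.1. KIF1C, NET1, TRAK2, RASSF3 and RAB13 lie above the cells in every EV 100K library, and MT-ND6 has no count in any.

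RNA encoded by the mitochondrial genome, which is made and kept inside mitochondria, was nearly missing from the pellet. It took 0.00645% ± 0.00138 of the EV 100K counts (SD, n = 3) and 2.88% of the cells' (interval 2.87% to 2.88%). MT-CO1, a subunit of cytochrome oxidase, measured 10.9, 8.26 and 13.8 CPM against 4302, and fell by 8.61 on the log2 scale (SE 0.27, edgeR adjusted p = 4.4e-23). All 13 mitochondrial mRNAs were lower in both fits, with a median of -8.64, as were both ribosomal RNAs. The large ribosomal RNA, MT-RNR2, measured 19.5, 16.5 and 24.6 CPM against 3989. MT-ND6 had no count in any EV 100K library and 85.8 CPM in the cells, at least 529-fold lower. Nuclear copies of mitochondrial genes make these counts uncertain.

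Nuclear genes for mitochondrial proteins were mixed. Of 71 nuclear-encoded respiratory chain genes, 11 were higher and 22 lower (7 and 13 in the fit on 10 libraries), with a median of -0.37. The higher share, 15.5%, was near the 15.8% over all genes tested, and the lower share was 31.0% against 15.5%. Of 77 genes of the mitochondrial ribosome 8 were higher (10.4%) and 23 lower (29.9%), with a median of -0.58. In the fit on 10 libraries these counts were 5 and 7. UQCRB, a subunit of complex III, rose by 2.78 on the log2 scale and MRPL51 by 2.86.

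Cytosolic ribosomal protein mRNAs were higher. They took 6.004% ± 0.401 of the EV 100K counts (SD, n = 3) and 2.72% of the cells'. For the large subunit 36 of 47 were higher (76.6%, against 15.8% over all genes tested) and none lower (against 15.5%). The median log2 fold change was 1.11, and 23 were higher in the fit on 10 libraries. For the small subunit 23 of 32 were higher (71.9%) and none lower, with a median of 0.95 (15 higher in the fit on 10 libraries). RPS6 measured 9215, 6668 and 6711 CPM against 606, a log2 difference of 3.64 ± 0.37 (edgeR adjusted p = 1.0e-09). RPL37 measured 1428, 879 and 941 CPM against 25.9 (5.38 ± 0.37, edgeR adjusted p = 1.1e-13). Both lay above the cells in every library, but reads shared with the many ribosomal protein pseudogenes make single values uncertain. Of 34 translation factors, 6 were higher (17.6%, near the 15.8% over all genes tested) and 14 lower (41.2%, against 15.5%). In the fit on 10 libraries these counts were 5 and 11. EIF5B stood at 3.59 and EIF3I at -1.77 on the log2 scale, while EEF1A1 did not pass (0.15 ± 0.26).

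Most members of the lists for the extracellular matrix, for the endoplasmic reticulum (ER) and secretory pathway, for integrins and for lysosomes were lower. Of 32 genes of the extracellular matrix 29 were lower (90.6%, against 15.5% over all genes tested) and none higher (against 15.8%). Their median was -2.04, and 27 were lower in the fit on 10 libraries. COL6A1, a collagen chain, measured 123, 135 and 153 CPM against 1787, and fell by 3.71 on the log2 scale (SE 0.21, edgeR adjusted p = 1.3e-15). All 3 EV 100K libraries lay far below the cells.

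The ER and secretory list had 30 of 43 lower (69.8%, against 15.5% over all genes tested) and 3 higher (6.98%, against 15.8%). The list had a median of -1.21, with 26 lower and 3 higher in the fit on 10 libraries. Its lower members included CALR (a chaperone, 256, 301 and 317 CPM against 1788) and RPN2 (of the glycosylation enzyme, -2.62). The 3 higher ones were SEC11A and SEC11C, of the signal peptidase, and OSTC, of the glycosylation enzyme. They were picked out here after their values were seen, with log2 fold changes of 1.75, 1.98 and 1.85. Of 9 integrin chains 7 were lower (77.8%), and of 22 lysosomal genes 17 (77.3%, median -1.43), against 15.5% over all genes tested. None was higher in either list. In the fit on 10 libraries 6 integrin chains and 14 lysosomal genes were lower. The log2 fold changes of ITGA3 and of CTSB, a lysosomal protease, were -3.10 and -2.46.

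Most genes of glycolysis and of the actin and adhesion list were lower too. Of 18 glycolytic genes, whose enzymes are cytosolic, 13 were lower (72.2%, against 15.5% over all genes tested) and none higher (against 15.8%). Their median was -1.46, and 12 were lower in the fit on 10 libraries. PKM, pyruvate kinase, measured 353, 513 and 488 CPM against 2037, while LDHA, lactate dehydrogenase, measured 817, 827 and 857 CPM against 745 and did not pass (edgeR adjusted p = 0.66). Of 36 actin and adhesion genes 25 were lower (69.4%) and 4 higher (11.1%), with 21 and 1 in the fit on 10 libraries. ACTB, beta-actin, measured 624, 953 and 881 CPM against 6001, and fell by 2.87 on the log2 scale (edgeR adjusted p = 2.3e-11).

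Genes of DNA replication had 23 of 34 lower (67.6%) and 3 higher (8.82%), with 16 and 0 in the fit on 10 libraries. Those of mitosis had 27 of 44 lower (61.4%) and 5 higher (11.4%), with 15 and 2 in that fit. Over all genes tested 15.5% were lower and 15.8% higher. For tRNA synthetases 14 of 19 were lower (73.7%) and 1 higher (5.26%), with 10 and 0 in the fit on 10 libraries. PCNA, the sliding clamp of DNA polymerase, fell by 2.86 and CDK1, the mitotic kinase, fell by 2.23 on the log2 scale. Splicing genes were lower in 19 of 36 (52.8%) and higher in 9 (25%), with 13 and 6 in the fit on 10 libraries. Among them RBM25 measured 5613, 2977 and 3840 CPM against 309, whereas HNRNPL measured 22.3, 30.8 and 23.8 against 159. The very abundant mRNAs of the linker proteins PLEC and AHNAK did not pass (-0.11 ± 0.29 and 0.15 ± 0.27).

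**Figure D3:**
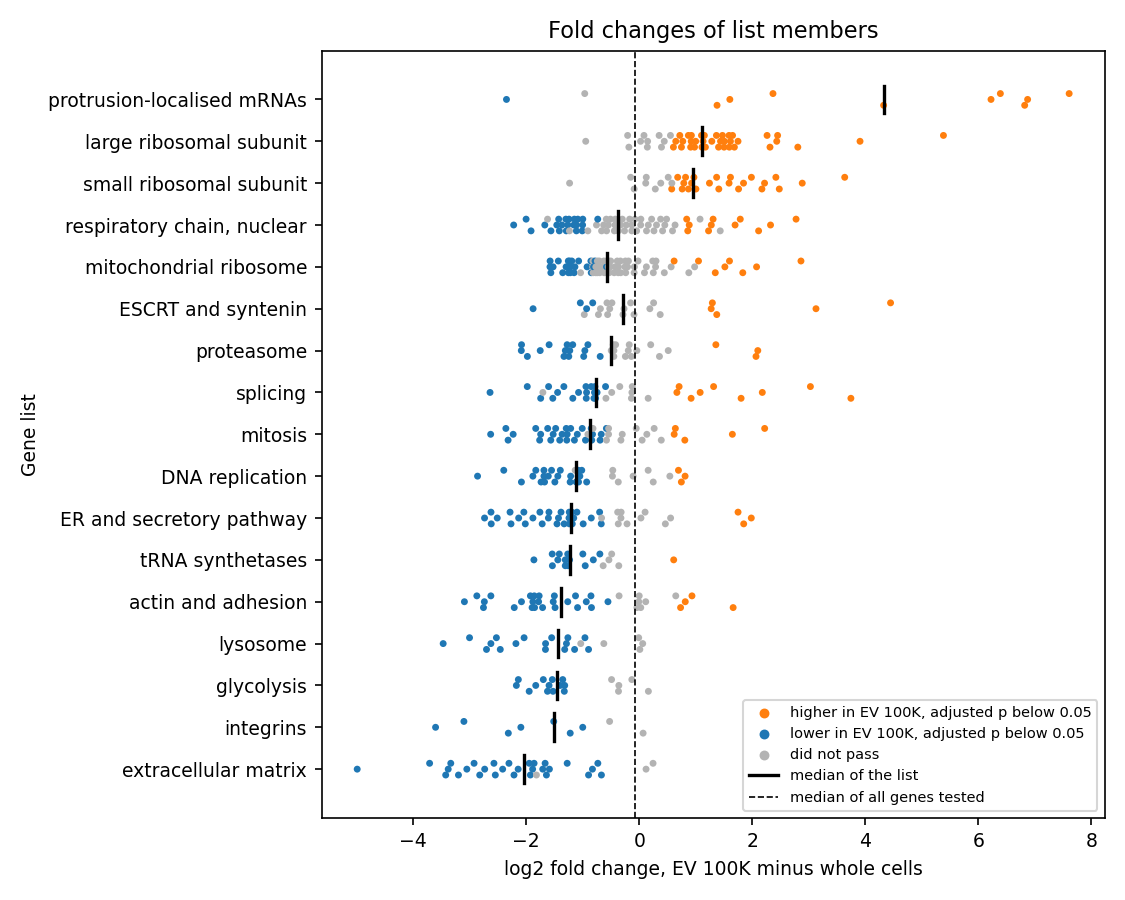
Log2 fold change (x) of each tested member of 17 gene lists (y), coloured by whether it passed, with a bar at each list's median and a dashed line at the median of all genes, -0.08. Members of the protrusion list reach 7.61, 29 of 32 members of the matrix list are lower, and splicing and ESCRT members lie on both sides.

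Genes whose proteins are used as vesicle markers did not follow one direction as RNA. Of 7 tetraspanins tested, 4 were lower (57.1%, against 15.5% over all genes tested) and 1 higher (14.3%, against 15.8%). CD9 measured 6.44, 7.14 and 5.99 CPM against 90.2, a log2 difference of -3.79 ± 0.31 (edgeR adjusted p = 1.1e-11), and CD81 20.7, 51.8 and 32.5 against 120. CD63 measured 321, 282 and 314 CPM against 159 and rose by 0.95 (SE 0.23, edgeR adjusted p = 0.0017), but not in the fit on 10 libraries (adjusted p = 0.096).

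The ESCRT list, whose proteins bud vesicles into endosomes, had 5 of 23 higher (21.7%) and 4 lower (17.4%), shares near those over all genes tested, 15.8% and 15.5%. In the fit on 10 libraries these counts were 2 and 1. VPS25 measured 434, 392 and 275 CPM against 16.8 and rose by 4.45, while PDCD6IP (ALIX) fell by 1.88 on the log2 scale. TSG101 did not pass (-0.72 ± 0.39), nor did FLOT1 (0.05 ± 0.23) or ANXA2 (-0.37 ± 0.23). Of the 12 annexin and flotillin genes 7 were lower (58.3%) and none higher, with 7 lower in the fit on 10 libraries as well.

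Sterol genes moved both ways, with 6 of 25 higher (24%) and 7 lower (28%). The shares over all genes tested were 15.8% and 15.5%. In the fit on 10 libraries the sterol counts were 4 and 2. INSIG1, a sterol-sensing regulator, measured 85.7, 88.5 and 109 CPM against 10.7 and rose by 3.14, while FASN, fatty acid synthase, fell by 1.92 on the log2 scale. Replication-dependent histone genes, whose mRNAs lack a poly(A) tail, had 25 of 50 lower (50%) and 6 higher (12%). In the fit on 10 libraries the histone counts were 13 and 2. H4C2 rose by 3.14 and H1-2 fell by 1.58, with counts that near-identical copies make uncertain. MALAT1, a long noncoding RNA kept in the nucleus, measured 3125, 1417 and 1768 CPM against 1894 and did not pass (0.15 ± 0.32), while NEAT1, also nuclear, measured 155, 133 and 136 against 65.7 and rose by 1.10.

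The other pellets show where EV 100K stands apart. In the fit on all 10 libraries, KIF1C averaged 321 CPM in cells, then 3698, 16748 and 25572 CPM in the 2.8K, 10K and 100K pellets, on the scale of that fit. EV 100K was above EV 2.8K by 2.79 on the log2 scale, and above EV 10K by 0.61 (edgeR adjusted p = 0.028). The differences between EV 100K and EV 10K did not pass for NET1 (-0.08 ± 0.20) and TRAK2 (0.11 ± 0.20). RAB13 averaged 1383 CPM in EV 100K and 3018 in the 10K pellet, a log2 difference of -1.13 that passed.

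MT-CO1 differed widely between pellets. It averaged 4458 CPM in cells, and 12444, 1593 and 10.8 CPM in the 2.8K, 10K and 100K pellets, with SDs of 8970, 287 and 2.78 (n = 3 each). The spread at 2.8K was wide, and no test of that pellet against the cells is given. The log2 difference between EV 100K and EV 10K was -7.20. In the same order of pellets CD9 averaged 84.7, 59.5 and 6.41 CPM. COL6A1 averaged 1015, 391 and 135 CPM, and RPS6 1480, 4079 and 7408. For these 4 genes EV 100K differed from both of the other pellets at an adjusted p of 0.05 (edgeR).

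**Figure D4:**
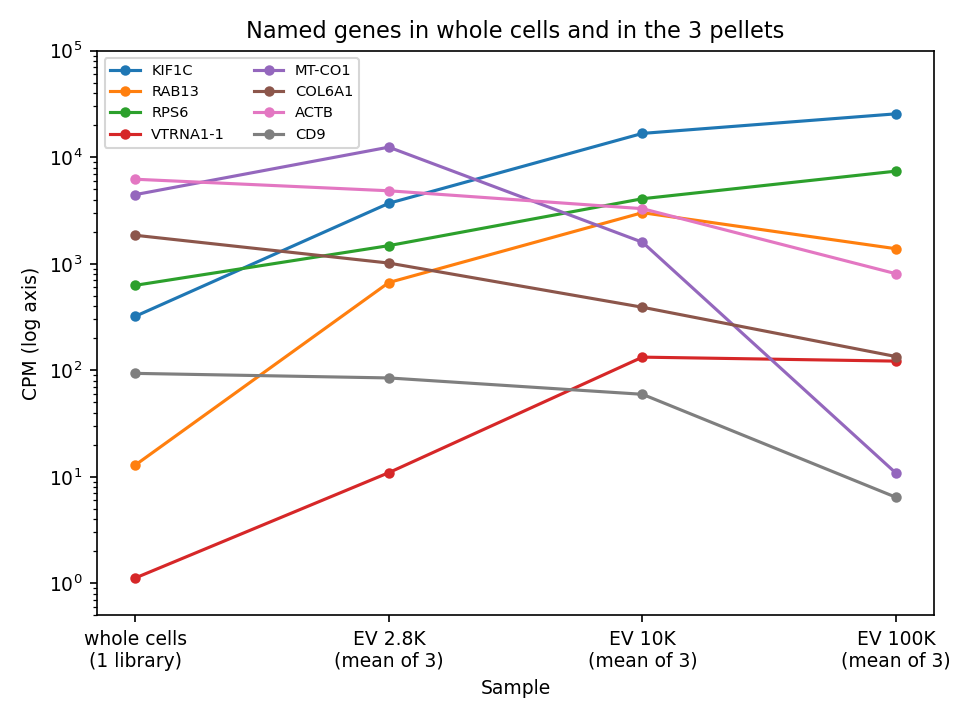
CPM (log axis) of 8 named genes in whole cells (1 library) and as the mean of 3 libraries in each pellet, joined by lines for reading only. Between the 2.8K and 100K pellets MT-CO1 goes from 12444 to 10.8 CPM and KIF1C from 3698 to 25572.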

How the data were processed

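The authors' deposited table holds read counts per gene, whole numbers that were not normalized. Per the submitters' processing notes, the tools named are STAR 2.6.1d, featureCounts 1.6.3, cutadapt 2.7 and bcl2fastq 2.19.1.403, and the build is GRCh38. Annotation, strand setting and the handling of multiply mapping reads were not given in the sources used here. Of 94946 entries, 45574 carry gene identifiers of GENCODE release 29, used for symbols and positions, and 49372 are names of a long noncoding RNA catalogue.

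The counts were tested with edgeR 4.0.16 in R 4.3.3 on the 4 libraries: filterByExpr with a minimum count of 10, TMM, and the robust quasi-likelihood F-test, with Benjamini-Hochberg adjustment over all genes tested and a threshold of 0.05. With 1 library in the cell group, a gene could pass the filter through any single library. Each gene has 2 residual degrees of freedom. The robust fit adds a median of 31.6 prior degrees of freedom, so the p-values rest mostly on a spread shared across genes. The biological coefficients of variation of the 100K, 10K and 2.8K pellets were 0.214, 0.396 and 0.496, so the fit on all 10 libraries was kept as an alternative. CPM are scaled by TMM factors, and an SE is the log2 fold change divided by the root of F. Intervals and floors (3 counts, over the group) cover counting error only, since reads are not independent molecules.

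The comparison, gene lists and tests were chosen with earlier results of these data known. Named genes include the 12 highest and 12 lowest fold changes among genes called in both fits. These needed a mean of at least 10 CPM, and all EV 100K libraries on the same side of the cell library. The remaining named genes are up to 3 members per list by p, fixed genes and the most abundant. Other list members in the text were chosen after their values were seen. The purine measures were added after the fold changes were known. A comparison of transcript starts with Alu and 7SL sequence was also looked at, showed no pattern and is not reported. A simulation of this comparison over 15342 genes found 36 of 100 true 2-fold changes and 72 of 99 true 4-fold ones. It called 7 genes that had no change. Its cell library was drawn with the same spread as the EV 100K libraries, and only a small part of the genes was changed. It therefore cannot show the rate of false calls from a real, unreplicated cell library. Not every named gene is reported here.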

Additional observations from a re-analysis of the deposited data

How the results depend on the processing

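No gene called in the comparison with cells was called in the opposite direction under an alternative. Every alternative used the same cell library, so this says nothing about the spread between cell cultures. FLOT1, which did not pass, moved from 0.05 to -0.02 in the fit on all 10 libraries. The fit on all 10 libraries moved the count of genes called from 5295 to 2247, with 1026 higher and 1221 lower and 22370 genes tested instead of 16933; its common coefficient of variation was 0.956 against 0.305, and the cause of the drop was not tested. In it 144 of the 146 named genes that passed were still called, the exceptions being PVT1 (adjusted p = 0.11) and CD63 (0.096); with TMM without mitochondrial genes and lnc-ARF6-1, and with gene identifiers only, 131 and 133 of them were tested. Higher and lower calls were 2799 and 2442 with RLE size factors, 2670 and 2623 with TMM computed without mitochondrial genes and lnc-ARF6-1, 2445 and 2377 with gene identifiers only, 2346 and 2623 without the filter, and 2846 and 1866 with DESeq2 1.42.0. Leaving out 1 EV 100K library gave 2409 to 2636 higher and 2408 to 2619 lower. Without mitochondrial genes and lnc-ARF6-1 in the denominator, KIF1C, NET1, TRAK2, RASSF3 and RAB13 took 6.08% in EV 100K and 0.0850% in the cells, and ribosomal protein genes 6.59% and 2.81%. The 570 genes detected in all 3 EV 100K libraries and not in the cells became 867 to 936 with 1 EV 100K library left out, since fewer libraries then had to hold the gene. The 3397 genes of the cells alone became 1908 at a minimum count of 5. The purine-rich share of all genes was 17.3% by runs and 11.02% by windows, the second measure being defined after the first was seen. No paired analysis was possible because the cell library carries no set number, as far as the comparison with cells goes. The pellets do share set numbers, and a replicate block, added after the data were seen, changed no call of the 8 genes compared between pellets: KIF1C was 0.63 above EV 10K, and calls against EV 10K went from 1998 to 2109 and against EV 2.8K from 4138 to 4162. Correlations of deviations from the pellet mean were -0.0069 to 0.035 for same-numbered libraries, against -0.030 to 0.022 for other pairs. Between EV 100K and EV 10K each library correlated best with its own number, but between EV 100K and EV 2.8K only those of set 3 did. Values this small over all genes cannot show whether same-numbered libraries share a culture. With 1 cell library, the spread between cell cultures is not measured, and 2-fold changes were mostly missed in simulated counts.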
